A study of Mus musculus with 7 samples.

Results

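Reactive gliosis of the injured retina was followed through 10 genes: Gfap, Vim and Nes, which encode intermediate filament proteins; Lcn2 and Serpina3n, which encode secreted acute phase proteins; Cp and Steap4, which encode enzymes of iron and copper handling; the receptor gene Cd44; the transcription factor gene Cebpd; and the growth factor gene Fgf2. They were taken by symbol from the deposited table, which held all 10 among its 25655 genes, and all 10 were among the 14750 genes with enough counts to be tested. Levels were compared between retinas of wild-type C57BL/6 mice given AAV2 (an adeno-associated virus used as a vector) for Tppp3 overexpression and retinas given a CMV control AAV2. Every retina, control retinas included, was taken 2 days after crush of the optic nerve, so no uninjured level is given here. Neither the age of the mice nor the promoter that drives Tppp3 is stated in the labels.

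Müller glia span the retina from the photoreceptors to the vitreous, and astrocytes lie in the nerve fibre layer beside the ganglion cell axons. When those axons are cut or crushed, both cell types enlarge, make more intermediate filament protein and secrete acute phase proteins, a response known as reactive gliosis. Cytokines that signal through the gp130 receptor subunit and the transcription factor STAT3 are among its known inducers. In the uninjured mouse retina GFAP protein is largely limited to astrocytes, and its appearance in Müller glia is a standard sign of retinal injury.

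The comparison rested on 3 Tppp3 AAV2 libraries of 19961359 to 21843892 counts and 3 control AAV2 libraries of 10961443 to 16218074 counts, numbered here by the replicate number in their labels. The labels do not say whether the libraries come from separate animals, so the p-values measure the spread between these samples, which may in part be technical. Tppp3 itself, the delivered gene, stood at 53.7, 36.5 and 41.8 CPM (counts scaled to a common library total, with TMM factors) in Tppp3 replicates 1, 2 and 3, against 18.7, 22.2 and 28.0 CPM in control replicates 1, 2 and 3. The groups did not overlap, but the difference did not pass in edgeR's quasi-likelihood test (adjusted p = 0.639 over all genes), while by DESeq2 (Wald test) it did, with an adjusted p of 2.1e-05. In whole retina, fewer cells of a type and less RNA per cell cannot be told apart.

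No reactive glia gene passed the test between the vector groups, and nearly all of them varied widely between libraries of the same group. In edgeR's quasi-likelihood test 0 of 10 had an adjusted p under 0.05, against 0.0136% of all tested genes, and 0 of 10 had an unadjusted p under 0.05, against 7.23% of all tested genes. DESeq2's Wald test called 0 of 10 (0.104% of all genes) and limma's voom with quality weights 0 of 10 (0% of all genes). The median log2 fold change of the 10 genes was 0.15 (0.0030 over all tested genes), with 8 positive and 2 negative. The groups overlapped in 10 of 10 genes. Among all tested genes, 13.9% had groups that did not overlap.

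**Figure D1:**
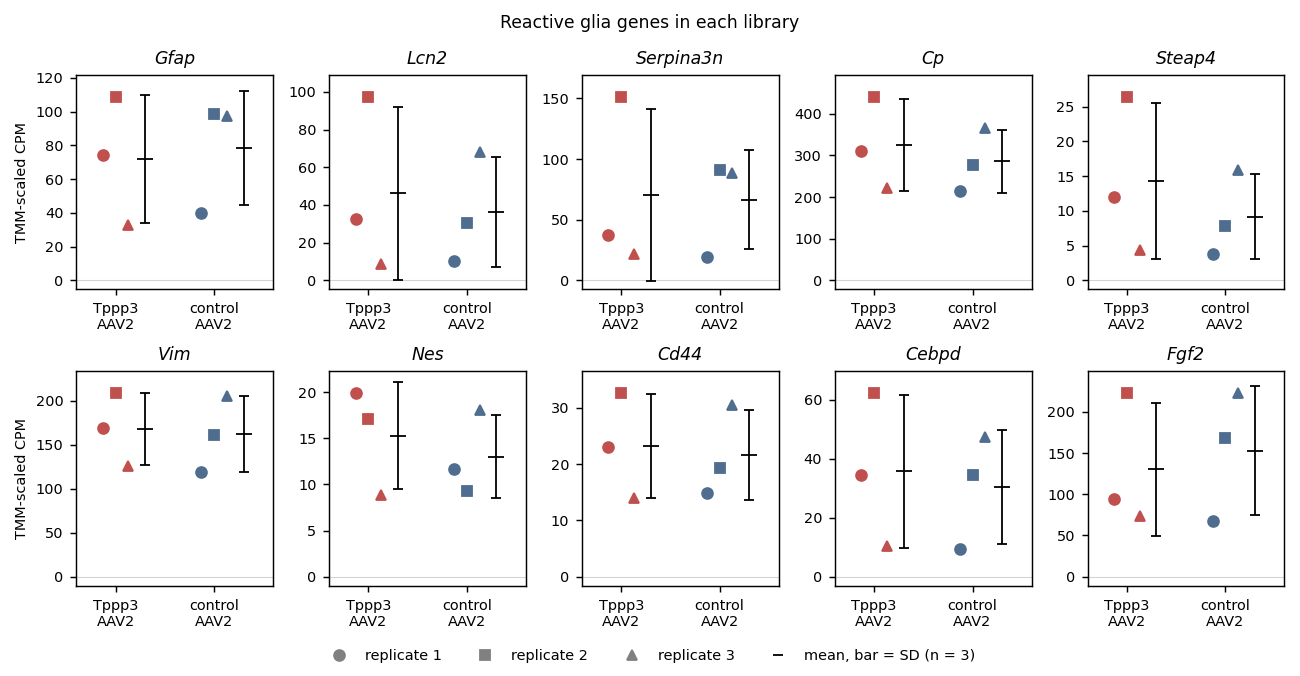
TMM-scaled CPM of the 10 genes in each library, with Tppp3 AAV2 left and control AAV2 right, marker shapes for replicates 1 to 3, and a bar for the mean and SD of 3 libraries. In each panel the groups overlap, and Tppp3 replicate 2 is the highest library for 9 of the 10 genes.

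Among the intermediate filament genes, Gfap, the gene of glial fibrillary acidic protein, stood at 74.4, 109 and 32.9 CPM in Tppp3 replicates 1, 2 and 3, against 39.6, 98.4 and 97.2 CPM in control replicates 1, 2 and 3. Tppp3 replicate 3 and control replicate 1 were the low libraries and held about the same level, so that each group spanned nearly the same range. The means were 72.1 ± 38.1 CPM with Tppp3 AAV2 and 78.4 ± 33.6 CPM with control AAV2 (SD, n = 3 each), with a log2 fold change of -0.13 ± 0.61 (SE; edgeR adjusted p = 0.983). Vim, the gene of vimentin, the filament protein that Müller glia also carry without injury, stood at 169, 209 and 126 CPM in the Tppp3 libraries, against 119, 161 and 205 CPM in the control libraries. Its lowest and highest libraries differed 1.75-fold, the smallest spread of the 10 genes, and its log2 fold change was 0.05 ± 0.30 (SE; edgeR adjusted p = 0.984). Nes, the gene of nestin, a filament protein of neural progenitors that is also found in activated glia and in vessels, stood at 19.9, 17.1 and 8.83 CPM in the Tppp3 libraries, against 11.7, 9.34 and 18.1 CPM in the control libraries. Nes alone of the 10 had its highest level in Tppp3 replicate 1, and its log2 fold change was 0.24 ± 0.41 (SE; edgeR adjusted p = 0.934).

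Lcn2 and Serpina3n, which encode secreted acute phase proteins, were the most variable of the reactive glia genes. Lcn2, the gene of lipocalin 2, which binds bacterial siderophores, stood at 32.6, 97.6 and 8.83 CPM in Tppp3 replicates 1, 2 and 3, against 10.3, 30.6 and 68.1 CPM in control replicates 1, 2 and 3. Its highest library exceeded its lowest 11.05-fold among the Tppp3 libraries and 6.59-fold among the controls. The log2 fold change between the groups was 0.36 ± 1.15 (SE; edgeR adjusted p = 0.971), and its 95% interval ran from -2.78 to 3.50. Serpina3n, which encodes an inhibitor of serine proteases, stood at 37.6, 151 and 21.3 CPM in the Tppp3 libraries, against 19.3, 91.3 and 88.5 CPM in the control libraries. Tppp3 replicate 2 was high, and control replicates 2 and 3 both lay above the other Tppp3 libraries. Its log2 fold change was 0.08 ± 1.04 (SE; edgeR adjusted p = 0.992), with a 95% interval from -2.76 to 2.91.

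Lcn2 is also a product of neutrophils, whose markers were therefore read in the same libraries. Of 10 neutrophil markers, 0 had enough counts to be tested, and Elane, Mpo and Retnlg had 0 counts in all 6 libraries. Their summed level was 0.457, 0.271 and 3.47 CPM in Tppp3 replicates 1, 2 and 3, against 0.354, 0.676 and 1.63 CPM in control replicates 1, 2 and 3. In Tppp3 replicate 3, the highest, 66 counts of Ltf made up most of the sum. Which cells the Lcn2 transcripts came from was not tested.

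Among the genes of metal handling, Cp, the gene of the copper-containing ferroxidase ceruloplasmin, stood at 311, 442 and 222 CPM in the Tppp3 libraries, against 215, 277 and 366 CPM in the control libraries. Steap4, which encodes a metalloreductase that reduces iron and copper at membranes, stood at 12.04, 26.5 and 4.37 CPM in the Tppp3 libraries, against 3.801, 7.81 and 15.8 CPM in the control libraries. Both were highest in Tppp3 replicate 2 and lowest in control replicate 1, with Tppp3 replicate 3 close to that control. Steap4 had the largest log2 fold change of the 10 genes, 0.66 ± 0.89 (SE; edgeR adjusted p = 0.917), and Cp had 0.19 ± 0.35 (SE; edgeR adjusted p = 0.945). Steap4 also had the smallest raw count among the 10 genes, 43 in control replicate 1, where the exact 95% Poisson interval ran from 2.75 to 5.12 CPM. In Tppp3 replicate 2, its 587 counts gave an interval of 24.4 to 28.7 CPM, so counting error was small beside the spread between libraries. These intervals cover counting error only.

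Cd44, which encodes a cell surface receptor for hyaluronan, stood at 23.02, 32.6 and 14.1 CPM in the Tppp3 libraries, against 14.9, 19.4 and 30.5 CPM in the control libraries. Cebpd, which encodes a leucine zipper transcription factor induced in acute phase responses, stood at 34.6, 62.4 and 10.3 CPM in the Tppp3 libraries, against 9.37, 34.7 and 47.4 CPM in the control libraries. Fgf2, which encodes basic fibroblast growth factor, a survival factor for photoreceptors and other neurons, stood at 94.8, 223 and 74.1 CPM in the Tppp3 libraries, against 68.2, 168 and 222 CPM in the control libraries. For each of these genes Tppp3 replicate 2 and control replicate 3 were the high libraries and Tppp3 replicate 3 and control replicate 1 the low ones. The log2 fold changes were 0.11 ± 0.44 for Cd44, 0.23 ± 0.91 for Cebpd and -0.23 ± 0.67 for Fgf2 (SE), with edgeR adjusted p of 0.979, 0.979 and 0.968 in that order. A two-sided exact permutation test over libraries gave p from 0.7 to 1 for the 10 genes, where 3 against 3 libraries allow no p below 0.1.

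**Figure D2:**
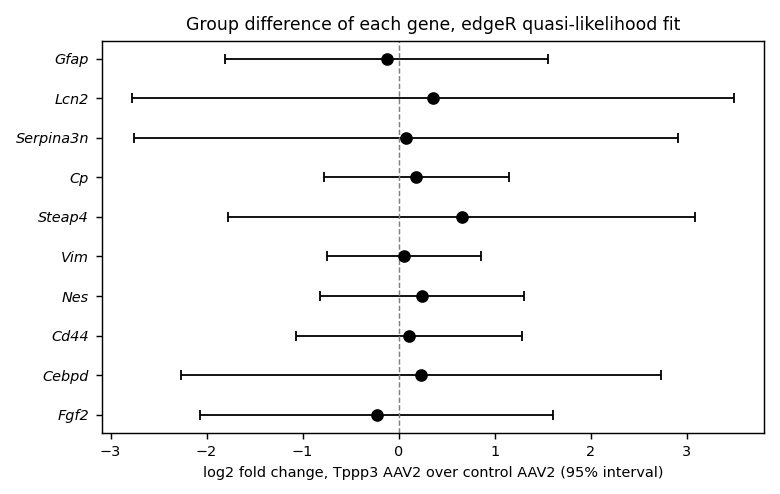
Log2 fold change of each gene, Tppp3 AAV2 over control AAV2, from edgeR's quasi-likelihood fit, with its 95% interval. Each of the 10 intervals includes 0, and the narrowest, that of Vim, runs from -0.75 to 0.86.

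The intervals set what these libraries could and could not show. For Vim the 95% interval of the fold ran from 0.596 to 1.81, and for Cp from 0.584 to 2.21. For Gfap it ran from 0.286 to 2.94, for Steap4 from 0.292 to 8.50, and for Lcn2 from 0.146 to 11.3. A several-fold difference of Lcn2 or Steap4 in either direction was therefore not excluded with 3 libraries a group. Leaving out Tppp3 replicate 2 made 9 of the 10 log2 fold changes negative, with Lcn2 at -0.81, Serpina3n at -1.18 and Steap4 at -0.15. Leaving out control replicate 3 made 10 of 10 positive, with Lcn2 at 1.15 and Steap4 at 1.27, as did leaving out Tppp3 replicate 3. Leaving out control replicate 1 left 3 of 10 positive. In each of these fits 0 of 10 genes were called by edgeR.

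The spread between libraries of a group was then set against that of other genes. It was measured as the SD of log2 CPM within groups, pooled over both. Its median was 0.84 for the 10 genes and 0.12 for all 14750 tested genes, and 9 of the 10 genes lay above the 90th percentile of all tested genes, 0.42, which 10% of genes exceed by construction. Only 0.339% of tested genes had a larger spread than Lcn2, 0.637% than Serpina3n, 0.800% than Cebpd and 1.08% than Steap4. For Vim, the gene below the 90th percentile, the share was 12%.

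**Figure D3:**
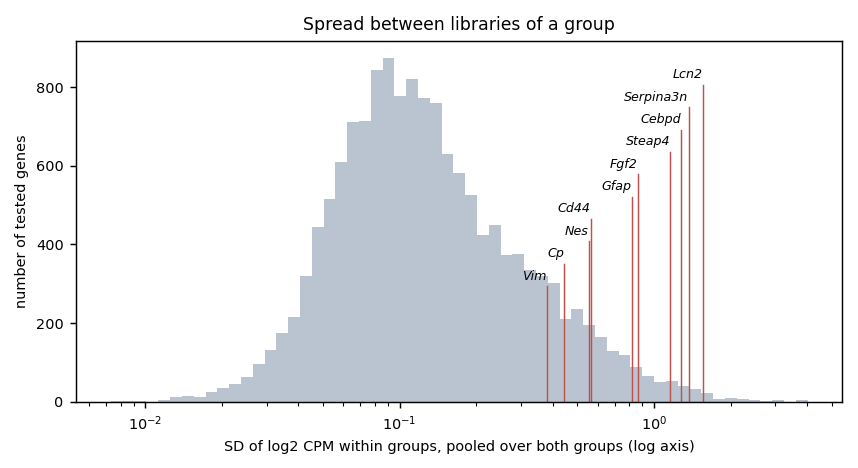
Histogram of the SD of log2 CPM within groups for all tested genes (log axis), with red lines at the 10 reactive glia genes. Lcn2 has the largest value among them, 1.55, and Vim the smallest, 0.38, against a median of 0.12 over all tested genes.

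The 10 genes were high and low in nearly the same libraries. Tppp3 replicate 2 was the highest Tppp3 library for 9 of 10 genes (34.5% of all tested genes), Tppp3 replicate 3 the lowest Tppp3 library for 10 of 10 (30.9%), and control replicate 1 the lowest control library for 9 of 10 (35.5%). All of these held for 9 of 10 genes, Nes being the exception, and for 7.51% of all tested genes. Control replicate 3 was the highest control library for 8 of 10 (33.6%), with Gfap and Serpina3n marginally higher in control replicate 2. Summed over the 10 genes, the level was 809, 1370 and 523 CPM in Tppp3 replicates 1, 2 and 3, against 511, 898 and 1160 CPM in control replicates 1, 2 and 3. These orders were chosen after the values were seen and are given as a description.

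**Figure D4:**
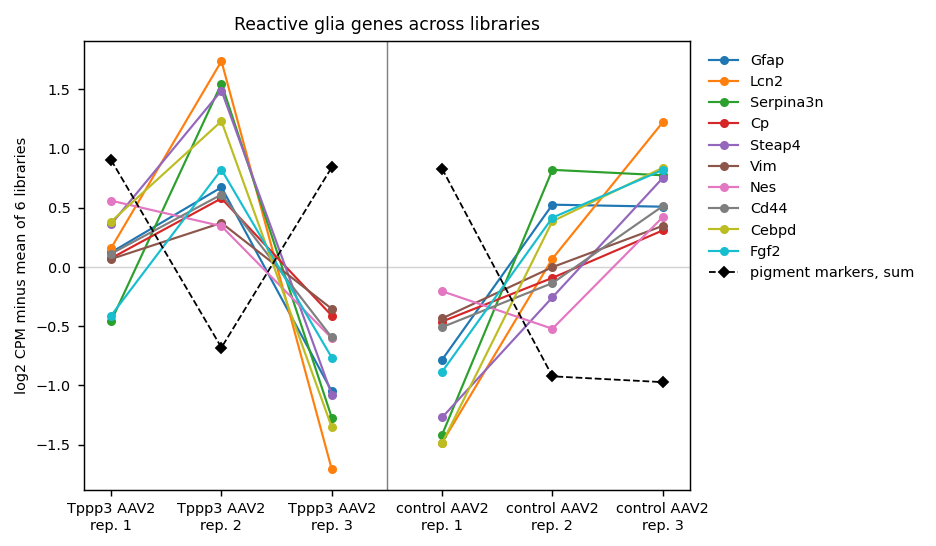
Log2 CPM of the 10 genes in each library, relative to the mean of the 6 libraries, with Tppp3 AAV2 left and control AAV2 right; lines join the values of a gene within a group, and the dashed line is the summed level of 14 pigment cell markers. All genes but Nes are lowest in Tppp3 replicate 3 and control replicate 1, where the summed pigment markers are high, at 246 and 244 CPM. The markers are as high in Tppp3 replicate 1, at 256 CPM, where the genes are not at their lowest.

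Gfap was compared with each of the other 9 genes over the 6 libraries in log2 CPM. Pearson's r lay between 0.86 (Steap4) and 0.97 (Cebpd) for 8 of them, with exact permutation p adjusted over the 9 relations of 0.025 to 0.0484. For Nes r was 0.55 (exact permutation adjusted p = 0.275). Spearman's rho lay between 0.77 and 0.94 for the 8 and was 0.31 for Nes, and its exact permutation p, adjusted over the 9 relations, was 0.1 to 0.564, so no rank correlation passed. With the mean of each group removed, r lay between 0.90 (Cd44) and 0.99 (Cebpd) for the 8 and was 0.60 for Nes.

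Tppp3 replicate 3 and control replicate 1 lay farthest from the median of Gfap. Without them, over 4 libraries, r was 0.99 for Serpina3n, 0.94 for Fgf2, 0.72 for Cebpd and 0.67 for Lcn2, while it was 0.56 for Vim, 0.53 for Cp, 0.45 for Cd44, 0.43 for Steap4 and -0.37 for Nes. None passed after adjustment, but 4 libraries leave so few permutations that hardly any relation could. Even the r of 0.99 for Serpina3n had an exact permutation p of 0.0417, adjusted to 0.375. Leaving out the libraries at the end of the Gfap range also tends to lower r. For Serpina3n and Fgf2 r was nonetheless no lower than over all 6 libraries, where it was 0.94 and 0.91. For the other genes, whether the relations rested on the 2 libraries cannot be told from these tests. Among 10215 other named genes of at least 10 CPM on average, those most like Gfap over the 6 libraries by Pearson's r were Jak3 (0.99), Laptm5 (0.99), Eif2s1 (0.98), C4b (0.98) and Sat1 (0.98). The complement gene C4b stood at 168, 223 and 73.4 CPM in the Tppp3 libraries, against 80.5, 170 and 196 CPM in the control libraries. Eif2s1, a translation factor gene, spanned only 34.6 to 39.1 CPM, so likeness in order did not mean a like size of difference.

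The stretches of DNA around their starts were searched for the palindromic motif TTCNNNGAA, which STAT proteins bind, and for TTGCNNAA, a motif of the C/EBP family to which Cebpd belongs, on both strands. RefSeq promoters (GRCm38.p6, 250 bases before the start to 50 after it) were found for 9 of the 10 genes, Cp with 2 of them. Cebpd had no entry. The STAT motif was present in 2 of these 10 promoters, those of Gfap and Steap4, against 8.30% of 32851 promoters of the same length. The C/EBP motif was present in 3 of 10, those of Lcn2, Steap4 and 1 of the Cp promoters, against 10.8% of all. Among the genes with a match, Gfap, Steap4 and Lcn2 varied more between libraries than Cp, so their promoters are shown, with matches in capitals. No 2 matches overlapped. Serpina3n and Fgf2, which varied more within groups than Gfap, had no match. They are 5′ to 3′ on the strand of the gene: Gfap at chr11:102897151-102897450 (minus strand), Steap4 at chr5:7960222-7960521 (plus strand) and Lcn2 at chr2:32387690-32387989 (minus strand).
Gfap: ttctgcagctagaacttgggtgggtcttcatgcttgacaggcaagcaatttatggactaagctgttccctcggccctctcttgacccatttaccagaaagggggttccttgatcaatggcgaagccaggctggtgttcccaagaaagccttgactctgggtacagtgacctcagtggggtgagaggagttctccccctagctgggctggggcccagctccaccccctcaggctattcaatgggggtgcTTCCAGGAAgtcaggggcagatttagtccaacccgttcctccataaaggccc
Steap4: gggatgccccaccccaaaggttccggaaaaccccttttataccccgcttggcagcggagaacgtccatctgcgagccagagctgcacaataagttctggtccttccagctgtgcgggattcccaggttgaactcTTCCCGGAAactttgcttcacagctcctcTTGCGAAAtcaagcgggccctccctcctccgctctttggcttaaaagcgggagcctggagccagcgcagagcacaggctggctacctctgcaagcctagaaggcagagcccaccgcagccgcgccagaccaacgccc
Lcn2: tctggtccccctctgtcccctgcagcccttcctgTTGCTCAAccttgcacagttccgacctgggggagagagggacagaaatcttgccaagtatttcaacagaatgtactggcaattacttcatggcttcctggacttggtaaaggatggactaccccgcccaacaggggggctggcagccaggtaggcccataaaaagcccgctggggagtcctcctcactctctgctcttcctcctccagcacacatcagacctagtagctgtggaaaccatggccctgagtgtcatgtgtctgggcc
Counted from the start as base 1, with no base 0, the Gfap match TTCCAGGAA ran from -2 to 7, and the Steap4 matches TTCCCGGAA and TTGCGAAA ran from -116 to -108 and from -87 to -80. The Lcn2 match TTGCTCAA ran from -216 to -209. A match shows letters in a window, not a bound site.

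Per kb of annotated exon the order of the 10 genes was different from that in CPM. The length used was the union of a gene's exons over all its annotated transcripts, which can exceed that of any single transcript. The order may depend on this choice. With counts divided by the exon length of the GENCODE vM21 annotation, an older build than that of the deposited counts, Vim averaged 35.5 ± 8.72 CPM per kb in Tppp3 AAV2 libraries and 34.2 ± 9.07 in control libraries (SD, n = 3 each). Serpina3n averaged 34.0 ± 34.4 and Cp 34.0 ± 11.5 CPM per kb in Tppp3 AAV2 libraries, against 32.2 ± 19.8 and 29.9 ± 7.96 in control libraries, so these 3 genes did not differ in level beyond their spread. Fgf2, Gfap and Lcn2 followed, at 19.2, 17.1 and 17.7 CPM per kb in Tppp3 AAV2 libraries and 22.5, 18.6 and 13.9 in control libraries, again within each other's spread. Cebpd stood at 9.54 and 8.14, Steap4 at 4.53 and 2.90, Cd44 at 3.43 and 3.19, and Nes at 2.38 and 2.03 CPM per kb in Tppp3 AAV2 and in control libraries.

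Markers of other cells were summed in each library. Pigment epithelium and pigment cell markers (14 genes, 12 tested) stood at 256, 85.5 and 246 CPM in Tppp3 replicates 1, 2 and 3, against 244, 72.2 and 69.8 CPM in control replicates 1, 2 and 3. The low libraries for the reactive glia genes, Tppp3 replicate 3 and control replicate 1, were thus high in pigment markers. The 3 libraries with few pigment transcripts were the highest for Gfap, Serpina3n and Fgf2, and by a small margin for Cebpd. For Lcn2, Cp, Steap4, Vim, Nes and Cd44 they were not, as Tppp3 replicate 1 stood above control replicate 2. Tppp3 replicate 1 was as high in pigment markers, yet held 809 CPM of the 10 genes. With the pigment level as a covariate 10 of 10 log2 fold changes were positive, between 0.30 (Vim) and 1.34 (Steap4), with Gfap at 0.39 and Fgf2 at 0.39, and 0 of 10 were called (lowest unadjusted p = 0.0635, adjusted p = 0.653, for Serpina3n, edgeR).

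Microglia markers (10 of 10 tested) summed to 129, 195 and 111 CPM in Tppp3 replicates 1, 2 and 3, against 123, 182 and 173 CPM in control replicates 1, 2 and 3. Like the sum of the reactive glia genes, theirs was highest in Tppp3 replicate 2 and lowest in Tppp3 replicate 3 and control replicate 1 within the groups, but among controls it was highest in replicate 2. The order of libraries that 9 of the 10 reactive glia genes had was present in 6 of the 10 microglia markers, against 7.51% of all tested genes. No microglia marker was at 0 in all libraries, and the part of these cells in the result was not tested. Müller glia markers (10 of 10 tested) summed to 4415, 4920 and 5236 CPM in the Tppp3 libraries, against 4840, 4059 and 4158 CPM in the control libraries. Much of this sum was Glul, at 2129, 2489 and 2801 CPM in the Tppp3 libraries, against 2495, 1845 and 1862 CPM in the control libraries. The other Müller glia markers differed in order. Among the Tppp3 libraries, Slc1a3, Aqp4 and Sox9 were lowest in replicate 3, while Rlbp1, Car14 and Dkk3 were, like Glul, highest there. Kcnj10, Abca8a and Gpr37 were lowest in Tppp3 replicate 1. The order of libraries of the reactive glia genes was present in 2 of the 10 Müller glia markers, against 7.51% of all tested genes. Retinal astrocyte markers (8 genes, 6 tested) summed to 75.4, 102 and 72.5 CPM in the Tppp3 libraries, against 78.4, 81.6 and 87.6 CPM in the control libraries. Pax2, the defining transcription factor of retinal astrocytes, averaged 0.667 ± 0.00831 CPM in Tppp3 AAV2 libraries and 0.644 ± 0.205 CPM in control libraries (SD, n = 3 each). At so low a level counting error is large, so the small SD in the Tppp3 AAV2 libraries does not show a steady level. Which of the glial types carried the reactive transcripts was not tested.

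Genes around the 10 in the same pathways were taken from lists of known genes. In edgeR's test 0 members of the 11 lists were called, against 0.0136% of all tested genes. Among 15 tested genes of gp130 and STAT3 signalling, 10 had a positive and 5 a negative log2 fold change, with a median of 0.02. Of these 15, 0 had an unadjusted p under 0.05, against 7.23% of all tested genes. The smallest p belonged to the kinase gene Jak2, with a log2 fold change of 0.12 (edgeR adjusted p = 0.728), followed by the receptor genes Il6ra at -0.29 (0.873) and Lifr at 0.05 (0.882). Stat3, Socs3 and Osmr, chosen after their values were seen, had the order of libraries that 9 of the 10 reactive glia genes shared. Stat3 stood at 156, 205 and 103 CPM in the Tppp3 libraries, against 94.0, 168 and 190 CPM in the control libraries. Socs3, the feedback inhibitor that STAT3 induces, stood at 11.5, 17.3 and 4.70 CPM in the Tppp3 libraries, against 5.04, 10.7 and 13.4 CPM in the control libraries. Osmr, the oncostatin M receptor gene, stood at 34.7, 38.2 and 17.1 CPM in the Tppp3 libraries, against 17.3, 29.4 and 31.9 CPM in the control libraries. All 3 were lowest in Tppp3 replicate 3 and control replicate 1.

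Other genes known to be raised in reactive astrocytes of any kind (13 tested) had 8 positive and 5 negative log2 fold changes with a median of 0.05. Of these, 5 had the shared order of libraries, against 7.51% of all tested genes. The smallest p belonged to Aspg at -0.70 (edgeR adjusted p = 0.790), the chemokine gene Cxcl10 at 0.87 (0.912) and the protease inhibitor gene Timp1 at 0.41 (0.913). Astrocyte genes known from inflammation (13 tested) had 9 positive and 4 negative, with a median of 0.02. Of these 13, 1 had an unadjusted p under 0.05, near the 7.23% of all tested genes. It was Fbln5 at 0.66 (edgeR adjusted p = 0.648). The complement gene C3 stood at 95.3, 249.1 and 114 CPM in the Tppp3 libraries, against 105, 99.4 and 138 CPM in the control libraries (log2 fold change 0.42, adjusted p = 0.890), and Fkbp5 had 0.10 (0.812).

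Astrocyte genes known from ischaemia (11 tested) had 3 positive and 8 negative log2 fold changes with a median of -0.26. Of these, 4 had an unadjusted p under 0.05 (7.23% of all tested genes) and 0 the shared order of libraries (7.51%). Lgals1, the gene of galectin 1, stood at 23.3, 27.4 and 23.7 CPM in the Tppp3 libraries, against 41.9, 34.6 and 44.7 CPM in the control libraries, and the groups did not overlap (log2 fold change -0.70, edgeR adjusted p = 0.115). Emp1 and Tm4sf1, which encode membrane proteins, had -0.66 and -0.56 (edgeR adjusted p = 0.639 each). DESeq2's Wald test called Lgals1 (adjusted p = 1.1e-04). Whether this list differed from the 10 genes was not tested. The summed markers of ciliary body and epithelium (8 genes, 5 tested) were, like Lgals1, lower in each Tppp3 library than in any control library. The control libraries had the same order for both. Among the Tppp3 libraries, replicate 2 was the highest for Lgals1 but the lowest for these markers. Their sums were 42.1, 40.7 and 55.0 CPM in Tppp3 replicates 1, 2 and 3, against 65.9, 59.6 and 71.4 CPM in control replicates 1, 2 and 3. Of the 5 tested, 4 had a negative and 1 a positive log2 fold change (median -0.80). The keratin gene Krt7 among them fell by 0.95 on the log2 scale (edgeR adjusted p = 0.0321), and the integrin gene Itgb4 had -0.96 (0.065). Krt14 had -0.80 (0.639) and Opcml -0.12 (0.835), while Wfdc1 had 0.485 (0.790). The part of such cells in the values of Lgals1, Emp1, Tm4sf1 and Krt8 was not tested.

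Among 13 tested intermediate filament and linker genes, 4 had a positive and 9 a negative log2 fold change (median -0.04), led by the keratin gene Krt8 at -0.79 (edgeR adjusted p = 0.115, DESeq2 adjusted p = 0.00141), the lamin gene Lmna at -0.26 (0.648) and the neuronal filament gene Ina at 0.08 (0.885). Among 9 C/EBP and AP-1 genes, 2 were positive and 7 negative (median -0.04), with Cebpa at -0.34 (adjusted p = 0.767), Cebpg at 0.11 (0.802) and Jund at -0.08 (0.865). FGF ligands and receptors (11 tested) had 7 positive and 4 negative (median 0.05), with Fgf11 at 0.20 (0.648), the decoy receptor gene Fgfrl1 at -0.20 (0.809) and Fgf1 at 0.14 (0.810). Iron handling genes (14 tested) had 8 positive and 6 negative (median 0.01), with the transferrin gene Trf at 0.34 (0.682), the iron exporter gene Slc40a1 at -0.36 (0.767) and the ferritin gene Fth1 at -0.06 (0.835).

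Genes of hyaluronan and other CD44 ligands (9 tested) had 4 positive and 5 negative log2 fold changes (median -0.10), with the osteopontin gene Spp1 at -0.47 (edgeR adjusted p = 0.550), the versican gene Vcan at 1.03 (0.785) and Cemip2 at -0.10 (0.840). Serpin genes related to Serpina3n and the proteases they meet (5 tested) had 5 positive (median 0.12), with Serpina3k at 0.34 (0.639), Serpina3m at 0.62 (0.728) and Serpina1a at 0.12 (0.875). Serpina3 genes are closely related copies, and the labels do not say how reads shared between them were counted, so their levels and that of Serpina3n are uncertain to that extent. Müller glia homeostatic genes (18 tested) had 14 positive and 4 negative (median 0.06), with the Notch target gene Hes1 at 0.40 (0.674), the water channel gene Aqp4 at 0.28 (0.730) and the glutamine synthetase gene Glul at 0.26 (0.782).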

How the data were processed

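RNA from mouse retina was enriched on oligo(dT) beads and made into libraries with the NEBNext Ultra II RNA kit, per the labels' protocols; whether counting used strand is not stated. Counts per gene symbol were deposited by the authors as raw whole numbers, per the file headers. Build GRCm39 (mm39) is named in the submitters' processing notes, while the aligner, counter and annotation are not given. Columns were matched to samples by title, which gave 6 libraries. The sample labels give 3 Tppp3 and 4 control samples, whereas the treatment protocol and the columns of the count table give 4 Tppp3 and 3 control. The labels were followed: 1 column, named as Tppp3 replicate 4, matched no labelled sample and was not used, and control replicate 4 was not analysed here. Fits planned for all labelled samples were made on the 6.

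Genes passed edgeR's filterByExpr and were scaled by TMM. The vectors were compared by a robust two-sided quasi-likelihood test in edgeR, with Benjamini-Hochberg adjustment over all tested genes and a threshold of 0.05. Log2 CPM used a prior count of 2. Standard errors were computed from each gene's F value and log2 fold change, and 95% intervals from these and the degrees of freedom. Alternatives were size factors and the Wald test of DESeq2, voom with quality weights (limma), other filters, thinning to 10961443 counts, each library left out, a replicate block and a pigment marker covariate. The procedure was tested on simulated data. The 10 genes and the lists were chosen with earlier results of these data known. The rule for named genes took the 10 genes, the 3 genes of smallest p in each list and the 5 genes most like Gfap. Versions were edgeR 4.0.16, DESeq2 1.42.0 and limma 3.58.1 in R 4.3.3, with matplotlib 3.10.9 in Python 3.11.15.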

Additional observations from a re-analysis of the deposited data

How the results depend on the processing

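Of the 10 reactive glia genes, 0 were called under any of the 14 alternatives, and their adjusted p ranged from 0.653 to 0.9995. Directions held for all 10 with the size factors or the Wald test of DESeq2, with thinning to equal depth, without a filter on low counts and with a minimum of 1 CPM on average. They turned with limma's voom with quality weights, to -0.21 for Lcn2, -0.51 for Serpina3n, -0.023 for Vim, -0.0044 for Cd44 and -0.17 for Cebpd, and with the pigment covariate, to 0.39 for Gfap and for Fgf2; the cause was not tested. With single libraries left out, log2 fold changes ranged from -0.55 to 0.22 for Gfap, -0.81 to 1.15 for Lcn2, -1.18 to 0.50 for Serpina3n, -0.10 to 0.40 for Cp, -0.15 to 1.27 for Steap4, -0.13 to 0.26 for Vim, 0.0035 to 0.55 for Nes, -0.22 to 0.43 for Cd44, -0.45 to 0.67 for Cebpd and -0.86 to 0.13 for Fgf2. Among the other named genes with a change of sign they ranged from -0.76 to 1.42 for Cxcl10, -0.43 to 0.77 for Timp1, -0.12 to 0.67 for C3, -0.52 to 0.016 for Il6ra, -0.16 to 0.0085 for Jund, -0.00085 to 0.15 for Ina, -0.22 to 0.26 for Stat3, -0.030 to 0.47 for Osmr and -0.27 to 0.57 for Socs3. Stat3 was at -0.089 and Socs3 at -0.099 with limma's voom, and Ina at -0.0050 with the pigment covariate. Without a filter on low counts, Lgals1 and Krt8 had edgeR adjusted p of 0.0323 and 0.0432. Of all genes, 0 were called higher and 2 lower in the test reported. Those called higher were 2 with DESeq2's Wald test, 1 with the pigment covariate and 0 to 2 with single libraries left out. Those called lower were 12 with DESeq2's Wald test, 0 with limma's voom, 6 without a low-count filter and 0 to 1 with single libraries left out. The correlation of Nes with Gfap was -0.37 without the 2 libraries farthest from the median of Gfap. With the replicate number as a replicate block, 1 gene was called lower and Serpina3n stood at -0.080. Same-numbered libraries did not deviate together over all tested genes (r = -0.029, 0.051 and -0.26 for numbers 1, 2 and 3), so the numbers were not taken to pair the samples.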

Other observations

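Gbp2 and Igtp, which encode interferon-induced GTPases, also varied widely between libraries, but among the Tppp3 libraries another one was highest. Gbp2 stood at 157, 39.5 and 9.78 CPM in Tppp3 replicates 1, 2 and 3, against 13.1, 31.2 and 160.1 CPM in control replicates 1, 2 and 3. Igtp stood at 115, 27.9 and 10.9 CPM in the Tppp3 libraries, against 12.9, 30.4 and 120 CPM in the control libraries. Tppp3 replicate 1 and control replicate 3 were the high libraries for these genes, while Tppp3 replicate 2 was the highest for 9 of the 10 reactive glia genes. Tppp3 replicate 3 and control replicate 1 were low for both. These genes were chosen after their values were seen, and the difference was not tested.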
